A study of Mus musculus with 38 samples.

Results

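The nuclear genes of the mitochondrial respiratory chain and the ATP synthase were followed in brown adipose tissue of mice on 2 diets and 3 doses of an herbal formulation. They were taken by name, as every gene name on the array that starts with Nduf, Uqcr, Atp5 or Cox4 to Cox8, together with Sdha, Sdhb, Sdhc, Sdhd, Cyc1 and Cycs, and without Cox7a1 and Cox8b. This gave 90 of the 29411 gene names on the array, no measured value being used in the choice. Of these, 36 encode subunits of complex I, 4 of complex II, 8 of complex III, 11 of complex IV and 15 of complex V. Another 1 encodes cytochrome c, and 4 are complex I assembly factors named Ndufaf1 to Ndufaf4. A further 8 are paralogs, kept apart from the complexes, and 3 (Cox4nb, Atp5s, Atp5sl) carry such a name without being subunits. The paralog Atp5l2 matched Atp5l2-ps in RefSeq, the name of a pseudogene. Ndufa4 was counted to complex IV. For testing, 88 passed the filter on dim probes, and Cox7b2 and Cox8c, the testis paralogs, did not. No gene of the mitochondrial genome is named on the array, so only the nuclear share of each complex was seen.

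RNA was hybridised to 38 one-colour arrays. C57BL/6J mice weaned at 3 to 4 weeks were given a low fat control diet with 10% of calories from fat (LFC, 10 arrays) or a high fat, high sucrose diet with 60% from fat (HFC, 10 arrays), and the high fat diet with 5, 20 or 75 µg of the formulation KAL-1 (HF5, HF20 and HF75, 6 arrays each). Arrays of LFC and HFC come from Day 6, Day 10, Day 14 and Week 0, and arrays of all 5 groups from Week 3 to Week 18 in steps of 3 weeks. The series design speaks of 3 biological replicates, but the labels give 1 array per group and time point. It is not stated whether an array holds 1 animal or a pool. The time points therefore served as replicates, and p-values measure the spread between them, which may be partly technical. A level is the log2 signal minus the array's 75th percentile, and a difference of 1 on this scale is 2-fold.

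The respiratory chain moves electrons from NADH through complex I, and from succinate through complex II, to coenzyme Q, then through complex III and cytochrome c to complex IV, where oxygen is reduced. Complexes I, III and IV pump protons, and complex V, the ATP synthase, lets them back to make ATP. Brown adipocytes are packed with mitochondria and burn fuel through this chain, while the uncoupling protein Ucp1 returns the protons without ATP synthesis. Many nuclear genes of the chain are read under shared factors, among them NRF1, the ETS factor GABP, the estrogen-related receptors and YY1.

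Promoter sequence was available for 72 of the 90 genes (RefSeq, build GRCm38.p6, 250 bases before to 50 after the start, the first listed window where a gene had several). Letters searched on both strands were GCGCATGC for NRF1, CCGGAAG for ETS factors, CAAGGTCA for estrogen-related receptors, AAGATGGCG for YY1 and TATAAA. The first was found in 12 of the 72 (16.7%) against 2.8% of all 27025 promoters, CCGGAAG in 16 (22.2%) against 9.12%, CAAGGTCA in 4 (5.56%) against 1.53%, and AAGATGGCG in 7 (9.72%) against 1.49%. TATAAA was found in 6 (8.33%) against 14.2%. All 7 matches of AAGATGGCG began between 23 and 36 bases after the start, and 57.7% of all promoters that hold these letters have a match after the start. These are matches of letters and no binding was measured. The 200 bases before the start are given for 1 gene of each complex and for cytochrome c that holds an NRF1 or ETS match, to show what genes of separate complexes share, with each match in capitals. Ndufa6 (chr15:82354292-82354491, minus strand), Sdhb (chr4:140961071-140961270, plus strand), Cycs (chr6:50566570-50566769, minus strand), Cox6a1 (chr5:115348959-115349158, minus strand) and Atp5g2 (chr15:102671048-102671247, minus strand) hold NRF1 letters, and Uqcr, now Uqcr11 (chr10:80406822-80407021, minus strand), holds ETS letters. In Ndufa6, Sdhb and Cycs the NRF1 letters are read on the opposite strand, as GCATGCGC. In Cox6a1 and Atp5g2 the NRF1 letters occur on both strands and overlap, and Cox6a1 has an ETS match as well.
Ndufa6, complex I: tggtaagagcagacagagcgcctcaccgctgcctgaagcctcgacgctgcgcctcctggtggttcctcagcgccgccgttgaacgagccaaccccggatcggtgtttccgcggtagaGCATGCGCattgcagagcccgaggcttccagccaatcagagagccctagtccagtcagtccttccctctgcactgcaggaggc
Sdhb, complex II: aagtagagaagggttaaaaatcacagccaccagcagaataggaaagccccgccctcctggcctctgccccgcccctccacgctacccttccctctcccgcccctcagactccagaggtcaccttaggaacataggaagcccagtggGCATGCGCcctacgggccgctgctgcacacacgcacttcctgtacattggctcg
Uqcr, complex III: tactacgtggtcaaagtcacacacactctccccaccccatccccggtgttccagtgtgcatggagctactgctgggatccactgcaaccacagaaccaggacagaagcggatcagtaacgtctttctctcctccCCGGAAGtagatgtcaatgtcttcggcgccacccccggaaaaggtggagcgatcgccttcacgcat
Cycs, cytochrome c: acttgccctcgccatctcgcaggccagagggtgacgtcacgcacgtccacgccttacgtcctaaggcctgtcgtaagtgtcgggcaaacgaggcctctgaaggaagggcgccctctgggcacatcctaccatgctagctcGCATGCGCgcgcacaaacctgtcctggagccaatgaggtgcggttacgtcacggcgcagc
Cox6a1, complex IV: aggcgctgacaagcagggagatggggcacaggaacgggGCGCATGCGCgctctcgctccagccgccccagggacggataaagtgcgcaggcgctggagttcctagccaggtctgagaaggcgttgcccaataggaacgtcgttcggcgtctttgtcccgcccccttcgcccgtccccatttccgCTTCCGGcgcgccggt
Atp5g2, complex V: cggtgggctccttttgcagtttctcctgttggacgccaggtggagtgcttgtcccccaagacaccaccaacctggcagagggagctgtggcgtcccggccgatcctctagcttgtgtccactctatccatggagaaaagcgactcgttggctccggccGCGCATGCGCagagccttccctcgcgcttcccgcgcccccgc

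The arrays differed in brightness, and this touches the respiratory chain genes directly because their spots saturate on bright arrays. The 75th percentile ran from 35.1 to 1209 units (median 183). It was above 600 on 11 arrays, called bright here, which are 4 of LFC, 2 of HFC, 0 of HF5, 4 of HF20 (Weeks 3, 6, 12 and 15) and 1 of HF75 (Week 3), and 27 arrays were dim. On 10 of the bright arrays between 28 and 60 of the 90 genes had a saturated spot, against 0 to 1 on the dim arrays. The HF75 array of Week 3 stood apart. It was bright with only 3 of these genes saturated, and Ucp1 was at -3.07 on it, against 5.27 to 6.70 on the other 4 arrays of that week. Cidea, another marker of brown adipocytes, was at -1.78 against 6.21 to 6.57. Of the same list, Prdm16 (1.67 against 1.59 to 2.34) lay within the range of those arrays, and Pdk4 (2.17 against 2.29 to 6.48) just below it. On every array 9 to 10 of the 10 listed brown markers were well above background, but their median on this array was -5.59 relative to the LFC mean. Markers of white adipocytes were high on it, with a list median of 1.86 and 9 of 9 genes well above background. Hoxc9 was at -0.28 against -6.53 to -8.21 on the other 4 arrays of that week, and Agt at 2.78 against values below 0. Lep (-1.44 against -3.33 to 1.83) and Nnmt (3.49 against 0.66 to 3.65) lay within the range of those arrays. The white list was also high on the LFC array of Week 12 (1.92), where the brown list was at 0.68. The array labelled HF75 of Week 3 thus goes against its label of brown adipose by Ucp1, Cidea and the brown list median. The counts of called genes in HF75 against HF20 and among doses, and the median in HF75 against HFC, are given with and without it. Other results of HF75, such as those of complexes, single genes, overlaps and lists, include it.

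The genes moved together from array to array. The Pearson correlation of a gene with the median of the others had a median of 0.910 over the 88 genes and 38 arrays, against -0.15 for all 21862 genes tested, and 47 of the 88 were above 0.9. Within the 27 dim arrays the median was 0.872, against 0.0938 for all genes. The 27 genes never saturated were less alike, at 0.709 on the dim arrays and 0.339 on the 10 bright arrays without HF75 of Week 3. The 40 genes saturated on 8 arrays or more were at 0.914 and 0.837, and all genes on those bright arrays at 0.0675. A saturated spot reads at the scanner's ceiling, so its level follows the array's 75th percentile by construction. The 0.837 is therefore no separate sign that these genes moved together. Over the 38 arrays complexes I and II were the most uniform (median 0.941 and 0.942), followed by III (0.883), V (0.807) and IV (0.768). The closest to the rest over the 38 arrays were Cox7b, a complex IV subunit (0.985), and Ndufa9 and Ndufb4, accessory subunits of complex I (both 0.984). The order of the complexes did not carry over to the dim arrays. There the genes of complex II lay between 0.819 and 0.932, and several saturated genes of complexes III to V correlated more highly than over the 38 arrays. These are descriptions, since the genes share arrays and brightness.

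Between whole complexes, the array medians correlated at 0.854 to 0.97 over the 38 arrays and at 0.786 to 0.981 over the 27 dim arrays. The lowest of the latter was between complexes II and V. The median level of the genes was 4.90 ± 1.12 (SD, n = 10) in LFC, 4.81 ± 0.94 (n = 10) in HFC, 4.82 ± 0.60 (n = 6) in HF5, 5.84 ± 0.67 (n = 6) in HF20 and 4.24 ± 0.43 (n = 6) in HF75. By brightness it was 3.56 to 5.62 on the dim arrays and 5.73 to 6.56 on the bright arrays without HF75 of Week 3, which was at 3.48, so the bright and dim ranges did not overlap once that array was set aside. Within each class the relation was the reverse. The median of the genes correlated with the log2 75th percentile at -0.675 on the 27 dim arrays. It did so at -0.82 on the 10 bright arrays without HF75 of Week 3, against 0.341 over the 38 arrays. Since the level has the log2 75th percentile subtracted, a negative part is built into these correlations. Saturated spots add to it on the bright arrays, so the values within a class are no finding about the genes. HF20, the group with the most bright arrays for its size, had the highest mean. The part of brightness in the group means was not tested apart from the alternatives given with each comparison.

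**Figure D1:**
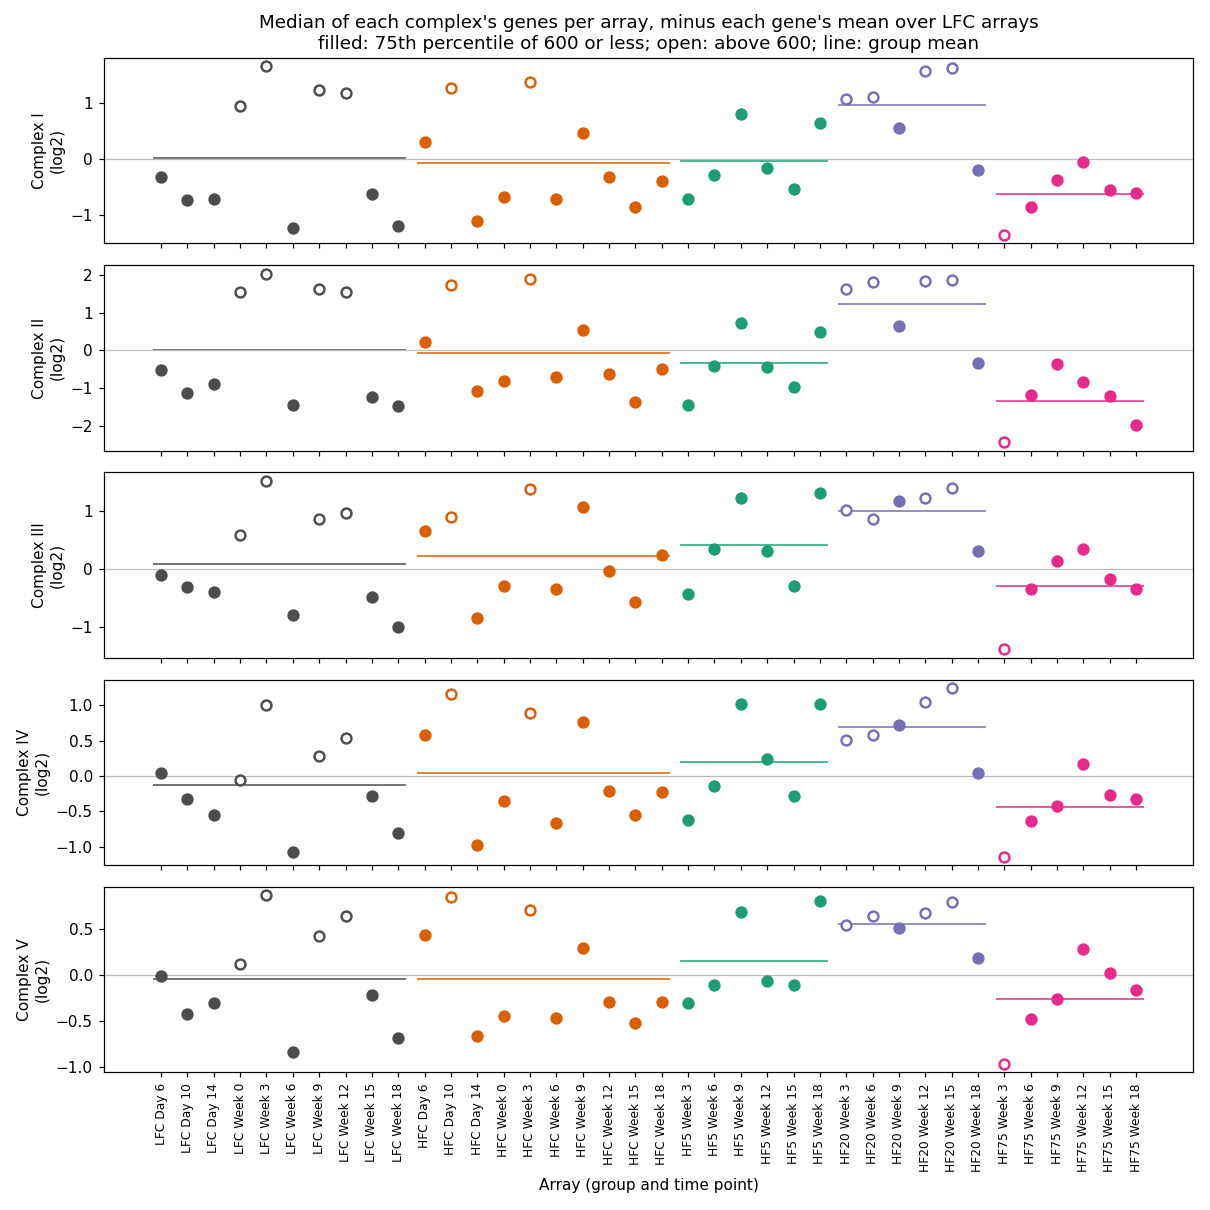
Median of the genes of each complex per array (vertical axis, log2, relative to each gene's mean over LFC arrays), arrays along the horizontal axis by group and time point, filled points for dim and open points for bright arrays, lines for group means. The complexes rise and dip on the same arrays, in complexes I and II the open points lie above the filled ones of their group except for HF75 of Week 3, and complex II spans the widest range.

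Some genes did not follow the rest over all arrays, and genes with many saturated spots were among them. Cox6a1, the widely expressed form of a complex IV subunit, correlated with the others at -0.36 over 38 arrays, but at 0.86 over the 27 dim arrays. It was saturated on 17 arrays. In HF20 it was at 6.21, 6.27, 6.42 and 6.36 on the bright arrays, all 4 saturated, and at 8.76 and 8.40 on the dim ones, so the bright arrays read lower. Atp5b, the catalytic beta subunit of the ATP synthase, was at -0.02 over 38 and 0.81 over 27 arrays, and Uqcrq of complex III at 0.15 and 0.94. The array carries 3 probes for Atp5b. The one with the highest mean, used here, was saturated on 11 arrays and correlated with these genes at -0.01, while the other probes did so at 0.863 and 0.842, the latter never saturated. Atp5g1 (0.13 over 38 arrays, 0.29 over 27) and Atp5k (0.37 and 0.36), both of the ATP synthase, followed the rest little on either set, and they were saturated on 0 arrays and 1 array.

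**Figure D2:**
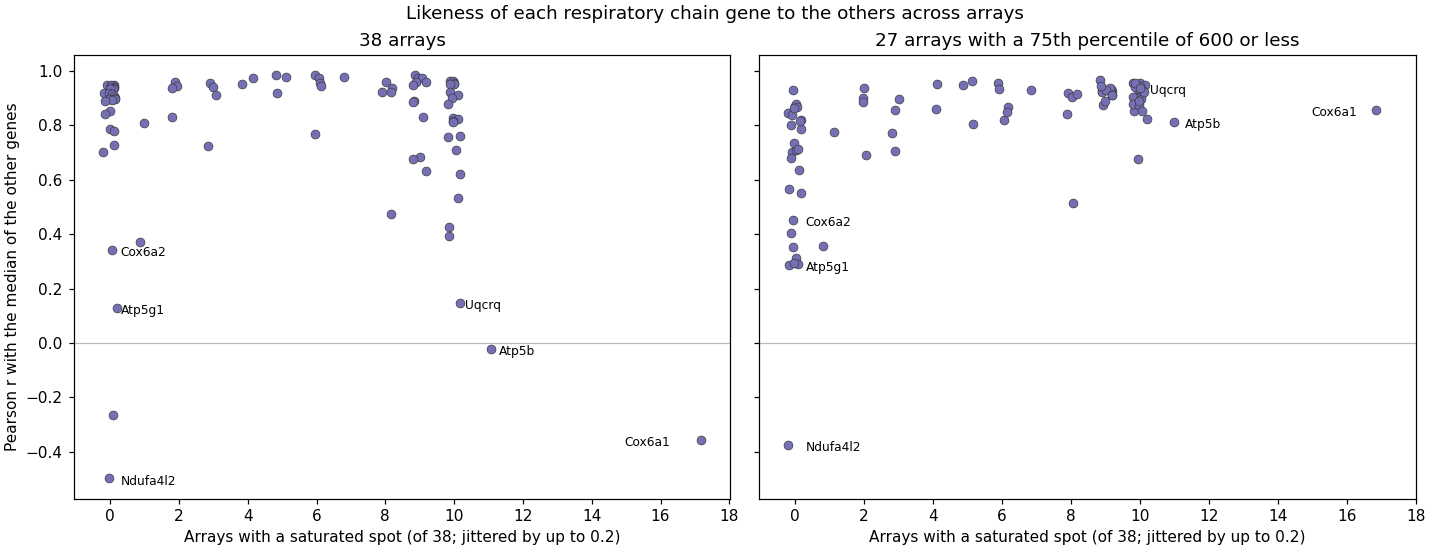
Correlation of each of the 88 genes with the median of the others (vertical axis, Pearson r) against the number of the 38 arrays on which its spot was saturated (horizontal axis), over all 38 arrays on the left and over the 27 dim arrays on the right, a point per gene. Cox6a1, at 17 saturated arrays, goes from -0.36 on the left to 0.86 on the right, while Ndufa4l2, never saturated, stays below 0.

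The diets were compared over 10 time points. No respiratory chain gene passed the test in HFC against LFC (limma, smallest adjusted p = 0.643), and 0% of all genes did. At an unadjusted p under 0.05, 4 were higher and 0 lower, against a background of 4.78% higher. The median difference of the 88 was -0.08, with 34 higher and 54 lower, and that of all genes 0.06. By complex the medians were -0.09 for I, -0.19 for II, 0.16 for III, -0.05 for IV and -0.03 for V. At single time points the median ran from -1.39 at Week 12 to 1.76 at Day 10, and each of these pairs set a bright array against a dim one. The sign of the median is not settled, since it was 0.20 with brightness class as a covariate and 0.22 on the dim arrays.

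The 4 genes with the smaller p were Atp5b (0.92, SE 0.27, adjusted p = 0.643, above LFC at 8 of 10 time points), Ndufv1, which binds NADH in complex I (0.51), Atp5a1, the alpha subunit beside Atp5b (0.42), and Uqcrq (0.57). Atp5b ranged from 5.27 to 7.41 (median 6.60) in LFC and from 6.60 to 8.56 (median 7.19) in HFC, so the groups overlapped. All of these 4 were saturated on the bright arrays, of which LFC had more. The Atp5b probe used correlated with the other Atp5b probes at only 0.01 and -0.20. The count of 4 was 1 with the mean of all probes or normexp background, and 10 with brightness class as a covariate (limma). Among the 28 genes never saturated in these groups, 24 were lower in HFC, with a median of -0.28. The lowest was Atp5k, the dimer-forming subunit e of the ATP synthase (-0.84, SE 0.50, adjusted p = 0.643). Cox4i2, the paralog known from lung and from low oxygen, was well above background on 3 of 10 LFC and 4 of 10 HFC arrays only, so no difference is given for it.

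No gene passed over time either. In the product of diet and day 0 of the 88 passed and 0 were under an unadjusted p of 0.05 (limma), against 0% and 15.3% of all genes. For the trend over days in both diets, fitted without a term for the time point, 0 passed against 1.63% of all genes. The median slope was -0.09 per 28 days, with 78 of 88 negative, beside 10093 of 21862 for all genes. Leaving out 1 time point kept the median below 0 (-0.15 to -0.03). Its sign is still not settled. It was 0.02 with the log2 75th percentile as a covariate, with 54 of 88 positive. With brightness class as a covariate it was -0.02, with 32 positive. Only Atp5sl (now Dmac2, no ATP synthase subunit) was under an unadjusted p of 0.05, against 6.42% of all genes lower. Its slope was -0.27 (limma, SE 0.11, adjusted p = 0.169).

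Each dose was set against HFC over 6 time points, and the 3 comparisons share the HFC arrays. For HF5, 0 of 88 genes passed (limma), as did 0% of all genes, and 2 were higher at an unadjusted p under 0.05 against a background of 3.4%. These were Atp5k (1.03, SE 0.43, adjusted p = 0.822, above HFC at 6 of 6) and Uqcrh, the hinge protein of complex III (0.68, SE 0.29, adjusted p = 0.822). The median was 0.06, from -1.89 at Week 3, the bright HFC array, to 1.03 at Week 18. Its sign is not settled, since it was 0.43 without Week 3, with 84 of 88 higher, and -0.27 after scaling on quantiles, with 76 lower.

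For HF20, 0 of 88 passed (limma, smallest adjusted p = 0.118), again with 0% of all genes, but 38 were higher and 1 lower at an unadjusted p under 0.05, against a background of 13.2% higher. The median was 0.88 while that of all genes was -0.20, and 83 of 88 were higher. By complex the medians were 1.38 for II, 0.77 for III, 0.59 for V and 0.54 for IV, and among genes never saturated 1.32 for I (9 genes), 1.38 for II (2), 0.81 for IV (2) and 0.72 for V (2). In complex I the accessory subunit Ndufa10 was at 1.68 (SE 0.71, adjusted p = 0.125, above HFC at 5 of 6) and Ndufs1, an iron-sulphur subunit, at 1.53 (SE 0.63, adjusted p = 0.123, above HFC at 5 of 6). The median was 0.22 with brightness class as a covariate, 0.58 with the log2 75th percentile as one and 0.26 on the dim arrays, with 1, 1 and 0 genes higher at an unadjusted p under 0.05 (limma). The medians by time point differed with brightness. At Weeks 6, 12 and 15, where a bright HF20 array met a dim HFC array, they were 1.64, 1.64 and 2.12. At Weeks 3, 9 and 18, where both arrays were of the same class, they were -0.28, 0.06 and 0.21, and the fit on those weeks gave -0.00. Without Week 3, 24 of the 88 passed, 23 higher and 1 lower, when 16.4% of all genes did.

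For HF75, 0 of 88 passed (limma, smallest adjusted p = 0.539), with 0% of all genes, and 10 were lower at an unadjusted p under 0.05 against a background of 4.28% lower. The median was -0.52, with 81 of 88 lower, and complex II was again the farthest (-1.16). Ndufa10 was at -1.64 (SE 0.71, adjusted p = 0.539, lower at 6 of 6 time points) and Cox6b1, on the face of complex IV that meets cytochrome c, at -1.50 (SE 0.67, adjusted p = 0.539, lower at 6 of 6). The values differed between time points. The median by time point was -2.46 at Week 3 and between -0.86 and 0.27 at the other 5, and without the HF75 array of Week 3 the fitted median was -0.31 and 0 genes were under an unadjusted p of 0.05.

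**Figure D3:**
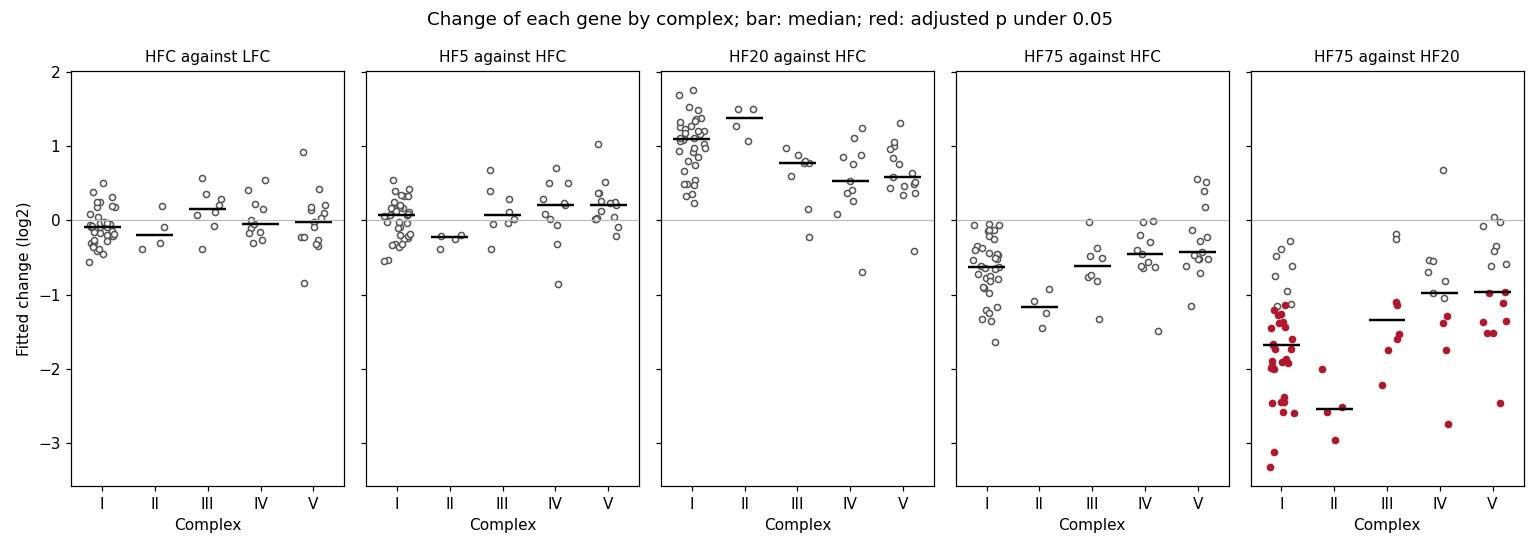
Fitted change of each gene (vertical axis, log2) by complex (horizontal axis) in 5 comparisons, bars for the median of a complex and red points for an adjusted p under 0.05. Red points occur only in HF75 against HF20, where all 4 genes of complex II and 28 of 36 of complex I are red.

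The most genes passed between the doses of 20 and 75 µg. In HF75 against HF20, 60 of 88 genes fell and 0 rose (limma), against 25.6% of all genes called and 12.8% called lower. The median was -1.36 while that of all genes was 0.29, and 84 of 88 were lower. All 6 HF75 values lay below all 6 HF20 values for 25 of the 88 (28.4%) against 3.75% of all genes, and for 0 did they lie above. Since tissue was measured in bulk, fewer cells with this programme and less of its RNA per cell cannot be told apart.

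This count rests on few arrays. With the HF75 array of Week 3 left out the count was 17, and without Week 3 altogether 37. Without Week 6, Week 12 or Week 15, the weeks that set a dim HF75 array against a bright HF20 array, it was 0 each time, with 63, 69 and 63 genes still lower at an unadjusted p under 0.05. With brightness class as a covariate it was 0 with a median of -0.73 and 31 genes lower at an unadjusted p under 0.05 (limma). On the dim arrays alone, 2 of HF20 and 5 of HF75, it was 0 with a median of -0.38 and 4 genes lower at an unadjusted p under 0.05 (limma). The median was nevertheless below 0 at each time point, at -2.19, -1.60, -0.89, -1.35, -1.79 and -0.47 from Week 3 to Week 18. At Weeks 9 and 18 both arrays were dim.

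**Figure D4:**
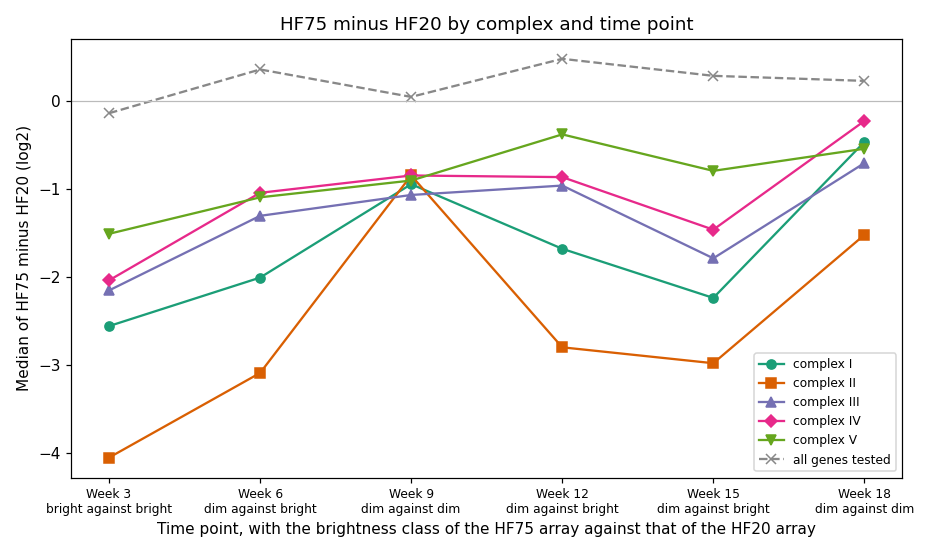
Median of HF75 minus HF20 (vertical axis, log2) by time point (horizontal axis, with the brightness class of both arrays) for the genes of each complex and for all genes tested. Every complex is below 0 at each of the 6 weeks, complex II is lowest at 5 of them, and at Week 9 all complexes lie close together.

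In complex I 28 of 36 genes fell, with a median of -1.67. Ndufa10 was at 2.98 to 6.07 (median 5.54) in HF20 and at 0.80 to 2.91 (median 1.61) in HF75, with no saturated spot. The groups did not overlap, and the difference was -3.32 (SE 0.71, adjusted p = 0.0144). Among the subunits that carry electrons from NADH, Ndufs1 fell by 2.44 (SE 0.63, adjusted p = 0.0166) and Ndufv1 by 1.14 (SE 0.37, adjusted p = 0.0307), both saturated on the 4 bright HF20 arrays. Ndufs3, a core subunit of the same arm, fell by 1.99 (SE 0.56, adjusted p = 0.02). The 4 assembly factors of complex I also fell, with a median of -1.76, Ndufaf1 by the most (-2.01, SE 0.59, adjusted p = 0.0225). At the other end, Ndufa13, Ndufs5 and Ndufb10 were at -0.28, -0.38 and -0.49 and did not pass, and all 3 were saturated on the 4 bright HF20 arrays, where their values are lower bounds.

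Complex II, succinate dehydrogenase, which belongs to the citric acid cycle as well, changed in all 4 of its genes, with a median of -2.54. Sdha, the flavoprotein that oxidises succinate, was at 2.52 to 5.31 (median 4.83) in HF20 and at 0.24 to 2.67 (median 2.01) in HF75, never saturated, and only the Week 18 array of HF20 lay within the HF75 range (-2.58, SE 0.65, adjusted p = 0.0156). Sdhb, the iron-sulphur subunit, was at 4.28 to 6.49 (median 6.27) and 1.77 to 3.59 (median 3.13) without overlap (-2.95, SE 0.66, adjusted p = 0.0146), 2 of the HF20 spots being saturated. The membrane anchors followed, Sdhc with -2.51 (SE 0.59, adjusted p = 0.0146) and Sdhd, which fell too (SE 0.56, adjusted p = 0.0194). Sdhd lay at 4.92 to 6.40 (median 6.20) in HF20 and 2.52 to 4.55 (median 4.05) in HF75, without overlap, with 3 HF20 spots saturated.

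In complex III 6 of 8 genes fell, with a median of -1.33. Cyc1, the haem protein that hands electrons to cytochrome c, was at 4.95 to 6.48 (median 6.29) in HF20 and 2.12 to 5.34 (median 3.75) in HF75, the groups overlapping by the HF75 array of Week 9 (-2.21, SE 0.58, adjusted p = 0.0169). The core protein Uqcrc1 fell by 1.74 (SE 0.53, adjusted p = 0.0256) and Uqcrfs1, the Rieske iron-sulphur protein, by 1.53 (SE 0.47, adjusted p = 0.0261). Uqcrq and Uqcrh were at -0.25 and -0.18 and did not pass, and both were saturated on all 4 bright HF20 arrays. Cytochrome c itself, Cycs, was at 6.08 to 6.68 (median 6.40) in HF20 and 3.87 to 5.78 (median 5.25) in HF75 (-1.28, SE 0.38, adjusted p = 0.0226), and the groups did not overlap. Cyc1, Uqcrc1 and Cycs were saturated on the 4 bright HF20 arrays as well, and Uqcrfs1 on 3.

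In complex IV 4 of 11 genes fell, with a median of -0.97, and no test set the complexes against each other. Cox6b1 fell most. It was at 0.84 to 3.92 (median 2.97) in HF20 and -1.43 to 0.99 (median 0.15) in HF75, with no saturation (-2.74, SE 0.67, adjusted p = 0.0151). Cox7b, Ndufa4 and Cox7a2 fell by 1.75, 1.38 and 1.28. The subunits Cox4i1, Cox5a and Cox5b, which attach to the mitochondrially encoded core, did not pass, with Cox4i1 at -0.53 (SE 0.25, adjusted p = 0.108), Cox5a at -1.05 (SE 0.39, adjusted p = 0.0505) and Cox5b at -0.82 (SE 0.32, adjusted p = 0.0622), although each was lower at 6 of 6 time points. These 3 were saturated on the 4 bright HF20 arrays, where their values are lower bounds. The medians of the genes never saturated were -2.46 for complex I (9 genes), -2.54 for II (2), -1.86 for IV (2) and -0.59 for V (2). Over all 88 genes 22 of the 27 never saturated fell (median -1.87), against 38 of the 61 with a saturated spot (median -1.27).

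In complex V 8 of 15 genes fell, with a median of -0.96. Atp5d, of the central stalk, fell by 2.46 and Atp5l, a subunit in the membrane, by 1.52 (SE 0.37, adjusted p = 0.0151). Atp5l lay at 4.64 to 6.35 (median 5.60) in HF20 and 3.44 to 4.45 (median 4.16) in HF75, without overlap and without saturation in these groups. Of the catalytic head, Atp5a1 fell by 0.98 (SE 0.34, adjusted p = 0.0411) and Atp5b was at -0.02 (SE 0.35, adjusted p = 0.966), both saturated on the 4 bright HF20 arrays, while the gamma subunit Atp5c1, saturated there too, was at -0.62 (SE 0.31, adjusted p = 0.131). The 3 genes that encode the same mature subunit c of the rotor ring took different values. Atp5g2 fell by 1.12 (SE 0.35, adjusted p = 0.027), but Atp5g1 was at -0.07 (SE 0.27, adjusted p = 0.851) and Atp5g3 at 0.05 (SE 0.25, adjusted p = 0.888). Atp5g1 and Atp5g2 were never saturated, and Atp5g1 followed the other genes little over 38 arrays (0.13). The difference between these 3 genes was not tested.

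Among all doses, 27 of 88 genes differed in the F test (limma), against 13.4% of all genes. The count was 0 without the HF75 array of Week 3 and 0 without Week 3, Week 6, Week 12 or Week 15, and 0 on the dim arrays.

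The paralogs differed in what they did. Cox7a2l, a paralog of Cox7a2, lay at 3.25 to 4.10 (median 3.71) in HF20 and 2.61 to 2.93 (median 2.76) in HF75, never saturated and without overlap (-0.88, SE 0.24, adjusted p = 0.0183). Cox6a2, the heart and muscle form of Cox6a1, ranged over 10.4 log2 units on the 38 arrays. Within HF20 it ran from -3.71 to 4.49, and in HF75 its lowest value was -3.86 and its median -1.31, so arrays of the same group differed more than the groups (-1.13, SE 1.14, adjusted p = 0.448). Over the 38 arrays it correlated with the median of 12 skeletal muscle markers at 0.962, and at 0.905 over the dim arrays. Relative to the LFC mean, the muscle list itself ran from -3.85 to 5.50 in HF20 and from -2.94 to 6.45 in HF75, with at least 5 of its 12 genes well above background on every array. With the muscle list as a covariate, 54 of the 60 genes called in HF75 against HF20 were still called.

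Ndufa4l2, a paralog of Ndufa4 induced by low oxygen, was the least alike of all (-0.50 over 38 arrays). It was at 0.30 to 1.76 (median 1.06) in HF20 and 0.69 to 3.10 in HF75, highest on the HF75 array of Week 3 (0.38, SE 0.34, adjusted p = 0.385), while Ndufa4 was called lower (-1.38, SE 0.43, adjusted p = 0.0279). Cox6b2, a testis form, was called lower (-1.07, SE 0.37, adjusted p = 0.0374), but at 2 of 6 time points it was higher and on the dim arrays alone the difference was 0.028. Cox4i2 was well above background on 1 of 6 HF20 and 0 of 6 HF75 arrays, and Cox7b2 and Cox8c on 0 of these 12, so no difference is given for them.

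**Figure D5:**
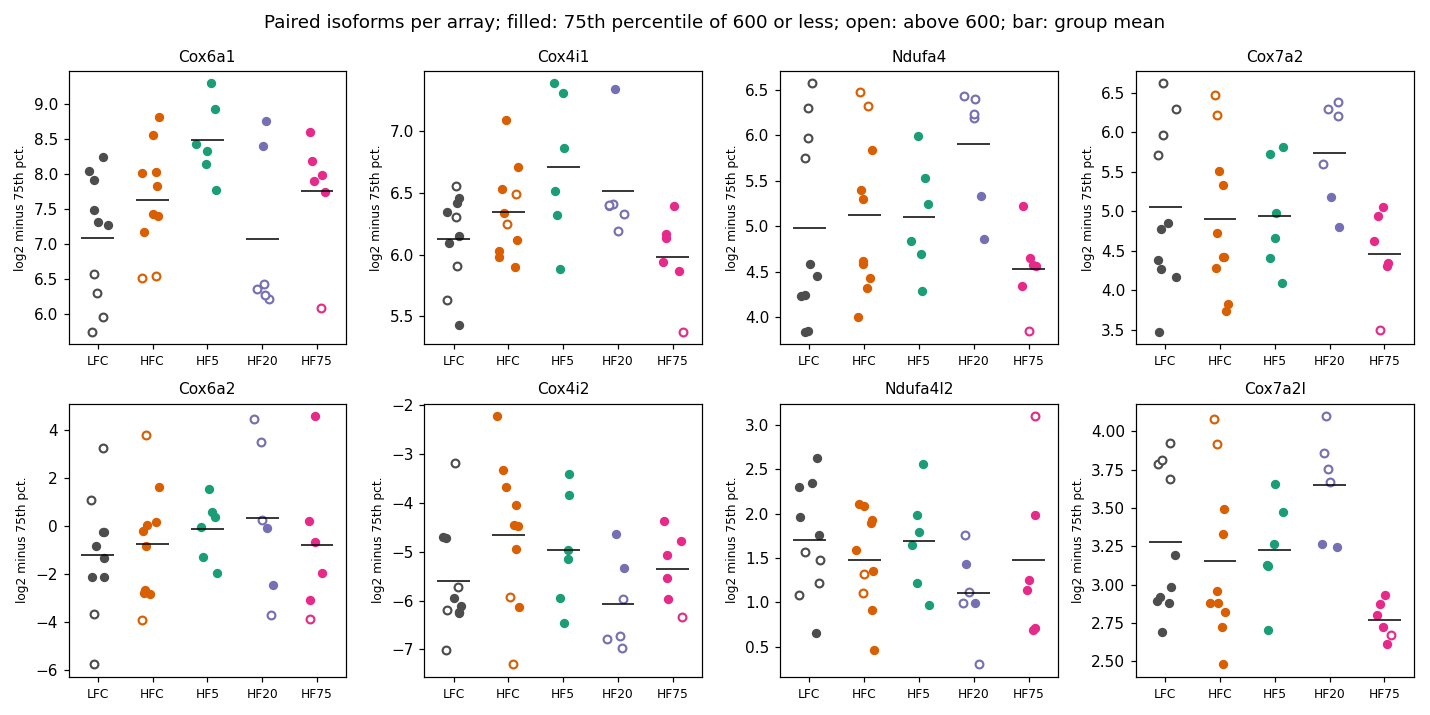
Level of 4 widely expressed subunits (top) and of a paralog of each (bottom) per array (vertical axes, log2 minus the 75th percentile, each with its own range) by group (horizontal axis), filled points for dim and open points for bright arrays, bars for group means. Ndufa4 and Cox7a2 lie lower in HF75 than in HF20, Cox7a2l does so within a narrow range, Cox6a2 scatters within every group, and the open points of Cox6a1 lie at the bottom.

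Other genes that serve the chain were read in HF75 against HF20, where 12.8% of all genes fell and 12.8% rose. Of 22 assembly factors outside the naming rule, 15 fell and 0 rose, with a median of -1.56, among them Foxred1 for complex I (-2.62, SE 0.60, adjusted p = 0.0146), Bcs1l for complex III (-2.13, SE 0.54, adjusted p = 0.016) and the copper chaperone Cox17 for complex IV (-2.05, SE 0.52, adjusted p = 0.016). Of 9 genes for electron entry at coenzyme Q, 8 fell (median -1.91), such as Etfdh, which takes electrons from fatty acid oxidation (-2.12, SE 0.63, adjusted p = 0.0229), and Gpd2 of the glycerol phosphate shuttle (-2.62, SE 0.69, adjusted p = 0.017). Of 11 genes of coenzyme Q synthesis and handling, 9 fell (median -2.11), Coq6 the most (-3.34, SE 0.73, adjusted p = 0.0145). For each of these lists the median of the 88 genes, -1.36, and that of all genes, 0.29, may be set beside it. The list counts here and below come from the same fit, in which the count of the 88 genes rested on few arrays. They include HF75 of Week 3 and were not read under the alternatives. Over the 38 arrays their medians correlated with that of the respiratory chain genes at 0.953, 0.942 and 0.947, as a description.

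Of 15 regulators of mitochondrial biogenesis measured, 6 fell and 1 rose in HF75 against HF20 (median -1.08), against 12.8% of all genes fallen and 12.8% risen. The nuclear receptor Ppara (-4.55, SE 1.03, adjusted p = 0.0146), the coactivators Ppargc1b (-4.04, SE 0.95, adjusted p = 0.0146) and Ppargc1a (-3.25, SE 0.86, adjusted p = 0.017) and the receptor Esrra (-1.99, SE 0.55, adjusted p = 0.0194) fell, as did Tfam and Tfb1m, which serve the mitochondrial genome. Gabpb1, a partner of the ETS factor, rose (1.59, SE 0.42, adjusted p = 0.0171). Nrf1 was at 0.75 and Gabpa at 0.09, and neither passed. In HF20 against HFC 0 genes of these 4 lists passed, with medians of 1.17, 1.08, 1.30 and 0.86.

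Marker genes of cell types were read in the same way, beside 12.8% of all genes fallen and 12.8% risen. In HF75 against HF20 the brown adipocyte list of 10 genes had a median of -2.24 with 4 fallen, and its array medians ran from 0.27 to 1.67 in HF20 and from -5.59 to 0.48 in HF75, the lowest being Week 3. For skeletal muscle 0 of 12 passed (median -0.97), for erythroid cells 0 of 7 (1.16), for lymphocytes 0 of 11 (0.44), for macrophages 1 of 10 fell (-0.42), and for white adipocytes 2 fell and 1 rose of 8 (-0.01), with the list at 1.86 on the HF75 array of Week 3 and 0.33 on the HF20 array of that week. The median of the respiratory chain genes correlated over the 38 arrays with the brown list at 0.747, the muscle list at 0.311 and the erythroid list at -0.517, and, apart from the muscle list as a covariate, the part of other cell types in the result was not tested.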

How the data were processed

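Brown adipose RNA was measured on 38 one-colour Agilent arrays. The deposited scanner files hold the background-corrected processed intensity of each spot, made by the authors with Feature Extraction (version 10.5.1.1 per the file headers, 9.1 in the submitters' processing notes). A deposited table of the authors' own log2 fold changes was not used. Here, log2 intensity minus each array's 75th percentile was taken, control and outlier spots were left out (12 values of these genes), and the probe with the highest mean of each gene name was kept (26 of the 90 genes have more than 1 probe, 122 in all). The 21862 genes with a signal well above background on 6 or more of the 38 arrays were tested with limma 3.58.1 in R 4.3.3. Tests were two-sided, with Benjamini-Hochberg adjustment over all genes and a threshold of 0.05. Time point was a block in all of them but the trend. HFC against LFC used their 20 arrays, and the doses the 30 arrays of Weeks 3 to 18. For the trend, weeks counted from day 14. Its fit held diet and day but no term for the time point, so LFC and HFC arrays of the same time point counted as separate.

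The genes, lists and tests were chosen with earlier results of these data known. The text names the catalytic and carrier subunits, the isoforms and paralogs, the smallest p of a complex, the 3 highest and lowest changes, and the genes most and least like the others. It also names, chosen after their values were seen, the 4 genes under an unadjusted p of 0.05 in the diet comparison, the 3 smallest complex I differences, Sdhc, Sdhd, Atp5d, Cox7b, Uqcrq, Uqcrh and the Ndufaf genes, and examples from the lists. A gene that the rule would name is not reported here. The fit was also run on simulated data with independent noise. These held no brightness classes, saturation or time point effects, so they check the fitting steps only. Alternatives were the background correction, scaling, probe choice, filters, saturation, brightness, slide, scan day, array weights, a muscle covariate and leaving out time points. Limiting to dim arrays and scaling on the median of tested genes were added after seeing the data. The number of arrays limits the precision. The time point comes from the labels and pairs the groups by study week. Deviations of LFC and HFC from their means correlated at -0.25 to 0.67 over time points.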

Additional observations from a re-analysis of the deposited data

Results flagged for a closer look

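Chance puts about 1 in 20 groups past the outlier test used here, and 8 of 170 checks passed it. Of these, 5 were on the HF75 array of Week 3, which lay below the other 5 arrays of HF75 for Ndufv1 (4.12), Uqcrfs1 (3.25), Cox5b (4.24), Atp5b (6.16) and Cox6a1 (6.09). The HF20 array of Week 9, 1 of the 2 dim arrays of that group, lay above its group for Ndufv1 (6.82) and Cox4i1 (7.34). Atp5g1, for the subunit c of the ATP synthase, was high on the HF75 array of Week 12 (2.45).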

How the results depend on the processing

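Many of the 88 genes saturate on bright arrays, where their values are lower bounds, and HF20 holds 4 bright arrays against 1 of HF75. With the time points unpaired (no replicate block), 54 genes were called in HF75 against HF20, all among the 60, and 11 among doses, and the block changed no other count of these genes at the adjusted threshold. Unpaired, 2411 of the 21862 genes were called in the product of diet and day, and 29 of the 88 were higher in HF20 and 6 lower in HF75 against HFC at an unadjusted p under 0.05. In HF75 against HF20 the count of 60 was 29 of 37 without genes saturated in these groups, 17 without the HF75 array of Week 3, 0 with normexp background, with the log2 75th percentile or brightness class as a covariate (median -0.73), on time points of 1 brightness class and on dim arrays alone (median -0.38), although 79, 54, 31, 24 and 4 were lower at an unadjusted p under 0.05 (limma). Leaving out 1 time point gave 0 to 65. Of the named genes called, Cox6b2 alone turned sign, to 0.028 on dim arrays alone. In HF20 against HFC array weights gave 58 called (28.7% of all genes), and leaving out 1 time point 0 to 24 (16.4% of all genes for the latter). Among doses the count of 27 was 12 without saturated genes, 55 for genes well above background on all arrays, 56 with slide as a block, 63 with array weights, and 0 with normexp background (median -1.28), no filter on dim probes, the 75th percentile, brightness class or muscle markers as covariates, without the HF75 array of Week 3 and on dim arrays alone. Leaving out 1 time point gave 0 to 54. For the trend, 1 gene was called with normexp background (median -0.28), brightness class, array weights or muscle markers. The cause was not tested. Over all comparisons and alternatives, of 5111 values of named genes 223 lost and 80 gained a call. The diet median changed sign with brightness class (0.20) or the 75th percentile (0.21) as a covariate, with array weights (0.09), on time points of 1 brightness class (0.17), on dim arrays (0.22), and without Week 0 (0.05) or Week 12 (0.07). Scaling on quantiles brought the median of all genes in HF75 against HF20 to 0.07 and that of the 88 to -1.53, with 66 called. Within scan days the HF75 minus HF20 median was below 0 on 6 of 6 days. Each of these days held 1 time point, so these are the medians by time point again and no separate check.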
